A study of Mus musculus with 6 samples.

Results

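The genes described here encode the ligands and receptors of axon guidance: semaphorins with plexins and neuropilins, ephrins with Eph receptors, Slits with Robo receptors, and netrins and netrin-Gs with Dcc and the Unc5 receptors. They were chosen by gene name, and 71 of the 55367 names in the count table matched. The 69 with a mean of 10 or more counts over the libraries are the members. Growth cones at the tips of axons read these cues as attraction or repulsion. Semaphorins signal through plexins, often with a neuropilin as the binding partner, Slits repel through Robo receptors, and netrin attracts through Dcc and repels through Unc5 receptors. Ephrins and Eph receptors are both bound to the cell surface and act where cells touch.

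RNA-seq was carried out on cells of the cerebral cortex of mice at postnatal day 1 (P1), cultured for 2 days in vitro, from wild-type (WT) or Fmr1-KO mice, with 3 libraries of each genotype. Both genotypes were on the C57BL/6J strain and no library had another treatment. FMRP, an RNA-binding protein whose loss causes fragile X syndrome, is missing in Fmr1-KO, and the knockout is not restricted to a cell type. ACSA2+ astrocytes and myelin were depleted with microbeads before plating, according to the study's methods. Samples were derived independently according to the study, but the labels name no litter, culture or sex, so the P values measure only the spread between these libraries, which may be technical.

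The libraries held 30348556 to 35126207 counts, of which members took 0.550% to 0.551% in WT and 0.576% to 0.584% in Fmr1-KO. Fmr1, the targeted gene, had 4113, 3710 and 3656 counts in WT and 1761, 1879 and 1972 counts in Fmr1-KO, so its transcript was still counted in the knockout but at a lower level in every library. Its log2 fold-change, Fmr1-KO relative to WT, was -0.98 (SE 0.04, edgeR adjusted P 2.25e-13). Neuronal markers were present, but the cultures also held transcripts of other cells. Levels are given as CPM, counts scaled to library totals adjusted by TMM factors. A list of 10 pan-neuronal genes summed to 3864 to 3964 CPM in WT and 3013 to 3172 CPM in Fmr1-KO. Astrocyte genes summed to 4621 to 4760.0 CPM in WT and 4016 to 4367 CPM in Fmr1-KO, and oligodendrocyte lineage genes to 2346 to 2551 CPM in WT and 1344 to 1448 CPM in Fmr1-KO. In such bulk libraries, fewer cells of a type and less RNA per cell cannot be told apart.

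The sequences of 4 promoters are shown first, those of the receptor and the ligand with the largest called change in each direction among members that had 1 annotated start and averaged 1 CPM or more, leaving out Dcc, whose sequence is not shown. They belong to Plxnd1 (lower in Fmr1-KO, chr6:115995006-115995255, minus strand), Epha2 (higher, chr4:141300971-141301220, plus strand), Sema3d (lower, chr5:12382916-12383165, plus strand) and Ntng2 (higher, chr2:29248100-29248349, minus strand). The 250 bases before each start are printed 5′ to 3′ on the strand of the gene, from RefSeq on GRCm38.p6. The RefSeq start of Ntng2 lies inside the span that GENCODE gives the gene. Capitals mark a match on either strand to the GC box GGGCGG, the E-box CAGATG, the T-box site AGGTGTGA or the cAMP response element TGACGTCA.
Plxnd1: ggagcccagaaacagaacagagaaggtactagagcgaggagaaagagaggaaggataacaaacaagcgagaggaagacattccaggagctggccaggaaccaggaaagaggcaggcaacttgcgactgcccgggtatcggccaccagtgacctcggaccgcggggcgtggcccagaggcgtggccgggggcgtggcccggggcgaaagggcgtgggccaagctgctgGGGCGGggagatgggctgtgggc
Epha2: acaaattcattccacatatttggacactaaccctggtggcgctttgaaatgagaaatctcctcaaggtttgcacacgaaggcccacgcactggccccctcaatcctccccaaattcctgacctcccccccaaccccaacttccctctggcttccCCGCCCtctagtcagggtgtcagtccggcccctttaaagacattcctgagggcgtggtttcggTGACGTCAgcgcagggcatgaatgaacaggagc
Sema3d: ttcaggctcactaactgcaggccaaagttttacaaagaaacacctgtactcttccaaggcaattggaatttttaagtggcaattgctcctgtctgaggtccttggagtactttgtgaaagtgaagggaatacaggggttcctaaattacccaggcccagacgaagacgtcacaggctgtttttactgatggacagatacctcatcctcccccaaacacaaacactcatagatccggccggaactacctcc
Ntng2: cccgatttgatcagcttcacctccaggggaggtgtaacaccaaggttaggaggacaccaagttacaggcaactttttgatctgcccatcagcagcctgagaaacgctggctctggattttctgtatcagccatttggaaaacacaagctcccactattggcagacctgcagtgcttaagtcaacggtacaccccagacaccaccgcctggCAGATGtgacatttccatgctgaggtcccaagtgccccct
The Plxnd1 sequence held 1 GC box, that of Epha2 held 1 GC box and 1 cAMP response element, that of Ntng2 held 1 E-box, and that of Sema3d held none of these motifs. Promoters were found for 59 members, 12 of them with more than 1 start. A GC box was found for 13 of 19 lower, 15 of 21 higher and 16 of 19 uncalled members, and in 32.7% of all 32851 promoters. The E-box was found for 1 of 19 lower, 2 of 21 higher and 2 of 19 uncalled members, and in 14.4% of all promoters. The T-box site was found for no member and in 1.12% of all promoters, and the cAMP response element for Epha2 and in 1.55% of all promoters. Members with several promoters were counted once if any of them had a match, so their shares are not on the same footing as the share of all promoters.

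In Fmr1-KO relative to WT, 22 of the 69 members were lower, 27 were higher and 20 were not called, at an adjusted P under 0.05 by edgeR. This is 71.0% of the members, where 42.6% of all 16976 tested genes were called, 21.9% lower and 20.7% higher. Members had a median of 50.3 CPM, above the 22.1 CPM of all tested genes. Between 16.6 and 113 CPM, 29 of 35 members (82.9%) were called, against 49.3% of 7058 tested genes. The changes went both ways, with a median log2 fold-change of 0.02 for the members and 0.01 for all tested genes. Their median absolute log2 fold-change was 0.27, against 0.15 for all tested genes.

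The values of the genotypes did not overlap for 52 members (75.4%), 28 of them higher and 24 lower, against 51.7% of all tested genes (25.4% higher and 26.3% lower). Calls of at least 2-fold were made for 2 members, Sema3d and Sema3g, and for 2.71% of all tested genes. Of these 2 members, Sema3g had under 10 counts in each WT library and passed the filter on low counts only through Fmr1-KO. All 69 members passed the filter on low counts. Ligands were lower in 11 and higher in 12 of 36, and receptors in 11 and 15 of 33. When a fold change above 1.2 was required, 11 members were lower and 8 higher (27.5% of the members), against 13.1% of all tested genes (7.89% lower and 5.20% higher).

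**Figure D1:**
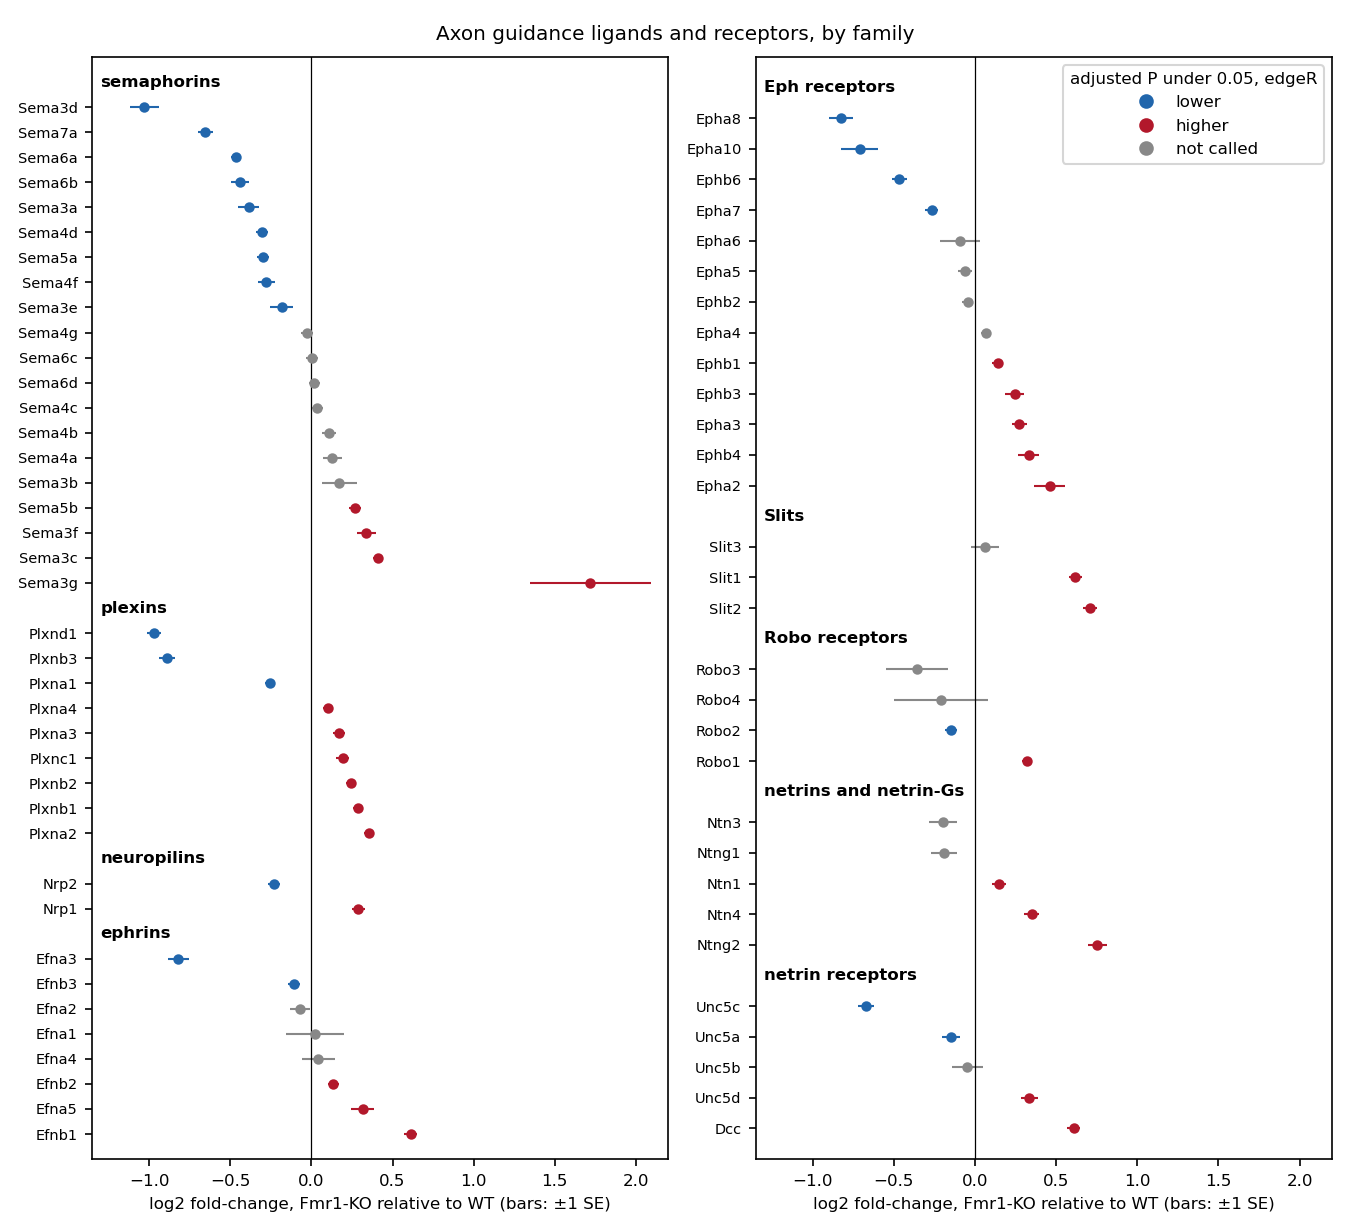
Log2 fold-change in Fmr1-KO relative to WT (x axis, bars of 1 SE, n = 3 libraries per genotype) of the 69 members, grouped by family and coloured by the call at an adjusted P under 0.05. Most families have members on both sides of 0, and no Slit, netrin or netrin-G was called lower.

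Levels of different members were compared per length, as CPM per kilobase of exon (RPKM). The highest level was that of Plxnb2, a receptor of class 4 semaphorins, with 50.04 ± 0.375 RPKM in WT and 59.2 ± 0.618 RPKM in Fmr1-KO (SD, n = 3 per genotype). In WT it was followed by Efnb3 (41.1 ± 0.717 RPKM), Epha4 (36.5 ± 1.01 RPKM), Sema7a (33.1 ± 1.47 RPKM) and Plxnb1 (27.3 ± 0.520 RPKM). The next in order, Plxna1 (25.8 ± 0.671 RPKM) and Sema3c (25.5 ± 0.882 RPKM), did not differ beyond their spread. In Fmr1-KO, Epha4 (38.3 ± 1.22 RPKM) and Efnb3 (38.2 ± 1.71 RPKM) were within their spread of each other, and so were Sema3c (33.9 ± 0.475 RPKM) and Plxnb1 (33.3 ± 0.744 RPKM). Sema7a went from rank 4 to 10, Plxnd1 from 10 to 31 and Plxnb3 from 12 to 30.

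**Figure D2:**
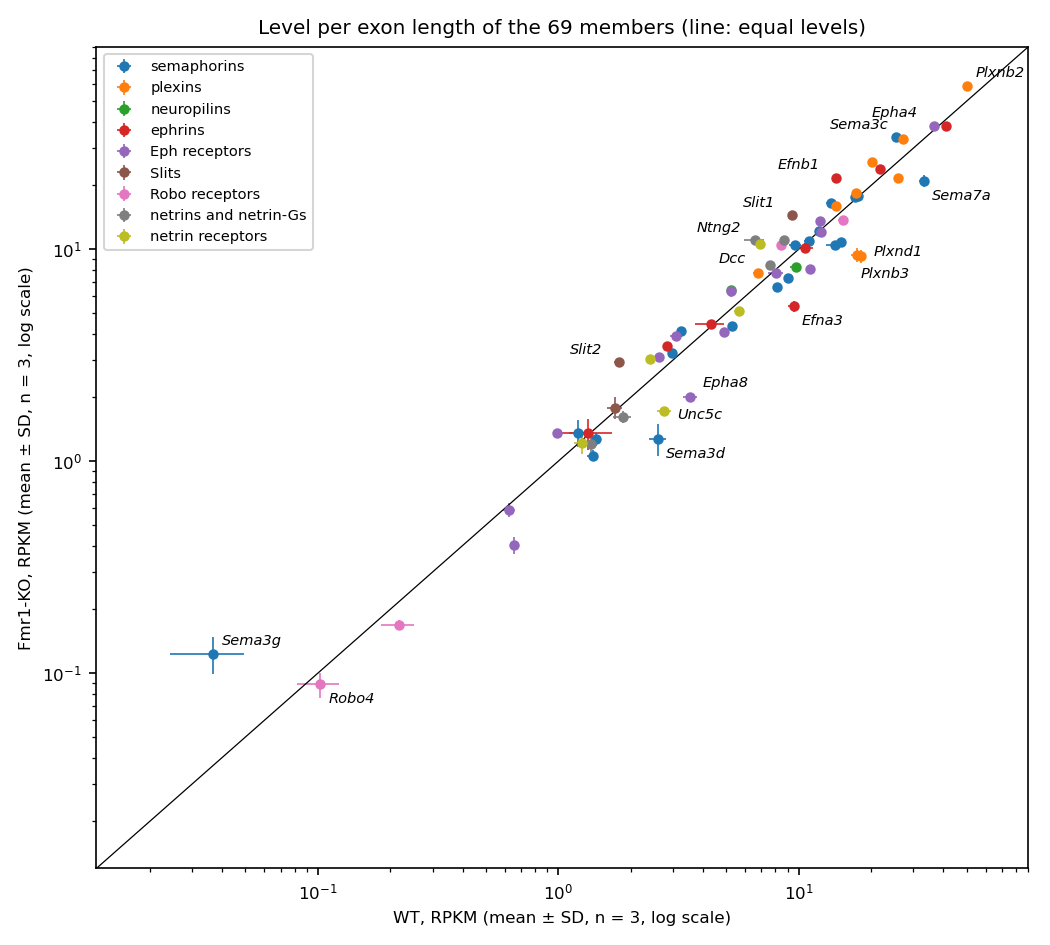
Level per exon length (RPKM, log scales) of each member in WT (x axis) and Fmr1-KO (y axis), as means with SD of 3 libraries, coloured by family, with the line of equal levels. Sema7a, Plxnd1, Plxnb3 and Sema3d lie below the line, and Efnb1, Slit1, Slit2, Dcc and Ntng2 above it.

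Semaphorins are secreted (class 3), span the membrane (classes 4 to 6) or are held by a lipid anchor (Sema7a). Of 20, 9 were lower (45%), 4 higher (20%) and 7 not called, against 21.9% lower and 20.7% higher of all tested genes. Sema3d, a secreted member at chr5:12383385-12588948 (GRCm38, as are all gene positions here), had 21.03, 21.5 and 24.4 CPM in WT and 10.5, 13.03 and 9.43 CPM in Fmr1-KO. The Fmr1-KO libraries were all far below WT, with a log2 fold-change of -1.03 (SE 0.09, edgeR adjusted P 6.08e-09). Sema7a, which promotes axon growth, at chr9:57940112-57962865, had 104, 113 and 111 CPM in WT and 69.1, 64.8 and 73.95 CPM in Fmr1-KO. No library reached the range of the other genotype, and the log2 fold-change was -0.65 (SE 0.04, edgeR adjusted P 1.43e-10). Sema6a, a ligand of A-class plexins, had 132, 131 and 131 CPM in WT and 92.6, 97.4 and 95.6 CPM in Fmr1-KO. The WT libraries were nearly equal and all above Fmr1-KO, with a log2 fold-change of -0.46 (SE 0.03, edgeR adjusted P 2.73e-10).

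Sema6b (-0.44), Sema3a (-0.39), known for collapsing growth cones, Sema4d (-0.30), Sema5a (-0.30) and Sema4f (-0.28) were also lower, in log2 fold-change. Sema3e, the ligand of Plxnd1, had 13.1, 13.4 and 13.7 CPM in WT and 10.98, 12.7 and 11.7 CPM in Fmr1-KO. The genotypes came close without overlapping, and the log2 fold-change of -0.18 (SE 0.07, edgeR adjusted P 0.0455) was only just called. It was not called by DESeq2 (adjusted P 0.131), nor by edgeR with a replicate block (adjusted P 0.0504) or without any single library other than Fmr1-KO replicate 2 (adjusted P 0.0697 to 0.190). Upper-quartile normalization, library totals alone and no filter on low counts also lost it (adjusted P 0.0597, 0.0868 and 0.0690 by edgeR).

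Of the higher semaphorins, Sema3c, a secreted ligand that binds neuropilins, had 179, 189 and 178 CPM in WT and 239, 246 and 240.2 CPM in Fmr1-KO. Every Fmr1-KO library exceeded every WT library, with a log2 fold-change of 0.41 (SE 0.03, edgeR adjusted P 1.12e-09). Sema3f, a ligand of Nrp2, had 16.8, 17.6 and 16.2 CPM in WT and 21.9, 20.8 and 21.3 CPM in Fmr1-KO, a log2 fold-change of 0.34 (SE 0.06). Sema5b had 98.2, 91.9 and 99.9 CPM in WT and 119, 119.7 and 111 CPM in Fmr1-KO, a log2 fold-change of 0.27 (SE 0.04). Both were separated between genotypes. Sema3g had only 8, 4 and 5 counts in WT and 14, 19 and 22 counts in Fmr1-KO. Its log2 fold-change of 1.72 (SE 0.37, edgeR adjusted P 0.000743) rests on these few counts.

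By class, 3 of 7 class 3 members were lower and 3 higher (85.7% called). Of 6 class 4 members 2 were lower (33.3%), and of 4 class 6 members 2 were lower (50%). The share called of all tested genes was 42.6%, so class 4 lay below it and class 6 near it. The class 3 sum, most of it Sema3c, was 255 to 267 CPM in WT and 303 to 313 CPM in Fmr1-KO. The class 6 sum was 442 to 452 CPM in WT and 385 to 408 CPM in Fmr1-KO. Among members not called, Sema6d, a ligand of Plxna1, had 185 to 189 CPM in WT and 180.1 to 199 CPM in Fmr1-KO, and the others had log2 fold-changes from -0.03 to 0.17.

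Plexins carry the semaphorin signal into the growth cone, and all 9 were called, 3 lower and 6 higher. Of all tested genes 42.6% were called. Plxnd1, at chr6:115954811-115995005 on the minus strand, had 134, 127 and 137 CPM in WT and 67.8, 62.9 and 72.2 CPM in Fmr1-KO. Each Fmr1-KO library was far below WT, with a log2 fold-change of -0.97 (SE 0.04, edgeR adjusted P 2.81e-13). Plxnb3, a receptor of Sema5a, at chrX:73757090-73772514, had 109, 121 and 110.0 CPM in WT and 62.1, 65.2 and 56.3 CPM in Fmr1-KO. The ranges were far apart here too, with a log2 fold-change of -0.89 (SE 0.05, edgeR adjusted P 4.22e-12). Plxna1, a signalling partner of neuropilins, had 234, 239.8 and 228 CPM in WT and 199, 192 and 196 CPM in Fmr1-KO, a smaller log2 fold-change of -0.25 (SE 0.03).

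The higher plexins differed by less than Plxnd1 and Plxnb3. Plxna2 had 353, 340.1 and 346 CPM in WT and 435, 447 and 446 CPM in Fmr1-KO, a log2 fold-change of 0.35 (SE 0.03, edgeR adjusted P 2.30e-09). Plxnb1, the receptor of Sema4d, had 264, 265 and 256 CPM in WT and 311, 325 and 322 CPM in Fmr1-KO, a log2 fold-change of 0.29 (SE 0.03). Plxnb2 had 389.6, 384 and 385 CPM in WT and 462, 452 and 457 CPM in Fmr1-KO, a log2 fold-change of 0.24 (SE 0.03). The whole Fmr1-KO range lay above WT in each of these. Plxnc1, which binds Sema7a, Plxna3 and Plxna4 had log2 fold-changes of 0.19, 0.17 and 0.10. Plxna4 was not called without Fmr1-KO replicate 3 (0.08, adjusted P 0.0515 by edgeR).

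The neuropilins were called in opposite directions. Nrp1, the binding receptor of Sema3a, had 50.3, 51.4 and 52.5 CPM in WT and 62.03, 62.6 and 63.7 CPM in Fmr1-KO. Its Fmr1-KO libraries were all higher, with a log2 fold-change of 0.29 (SE 0.04, edgeR adjusted P 2.43e-06). Nrp2, that of Sema3f, had 116, 109 and 120.2 CPM in WT and 97.6, 98.1 and 98.6 CPM in Fmr1-KO. Its Fmr1-KO libraries were all lower, with a log2 fold-change of -0.23 (SE 0.04, edgeR adjusted P 3.34e-05). In these pairs ligand and receptor were called on opposite sides: Sema3a lower with Nrp1 higher, Sema3f higher with Nrp2 lower, and likewise Sema4d lower with Plxnb1 higher and Sema7a lower with Plxnc1 higher. Sema5a and its receptor Plxnb3 were called on the same side, both lower. For Sema3c, the side depended on the receptor taken. Sema3c was higher, with Nrp1 higher but Nrp2 lower. Sema6a was lower, with its receptors Plxna2 and Plxna4 both higher. Plxnd1 was lower, as was its ligand Sema3e, with the limits on that call given above.

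Ephrins are ligands with a lipid anchor (A class) or a membrane span (B class). Of 8, 2 were lower (25%) and 3 higher (37.5%), against 21.9% and 20.7% of all tested genes. Efna3 had 22.01, 23.3 and 24.2 CPM in WT and 12.7, 12.7 and 13.97 CPM in Fmr1-KO, a log2 fold-change of -0.82 (SE 0.06, edgeR adjusted P 1.36e-09). Efnb1, at chrX:99136130-99148991, had 47.8, 49.97 and 49.8 CPM in WT and 76.9, 73.6 and 74.9 CPM in Fmr1-KO, a log2 fold-change of 0.61 (SE 0.04, edgeR adjusted P 4.21e-11). The genotypes were far apart in both genes. Efna5, which takes part in mapping of axons, had 11.7, 11.4 and 11.1 CPM in WT and 13.8, 13.9 and 14.8 CPM in Fmr1-KO, a log2 fold-change of 0.31 (SE 0.07). Efnb2 had 147, 155 and 147 CPM in WT and 163, 160.3 and 171 CPM in Fmr1-KO, a log2 fold-change of 0.14 (SE 0.03). Both were higher without overlap, Efnb2 by a narrow gap.

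Efnb3, the ephrin with the highest level per length, had 128, 132 and 132 CPM in WT and 123, 116 and 126 CPM in Fmr1-KO, a log2 fold-change of -0.11 (SE 0.04, edgeR adjusted P 0.0206). The genotypes lay close together, and the call was lost when WT replicate 2, WT replicate 3 or else Fmr1-KO replicate 2 was left out (adjusted P 0.0532, 0.0598 and 0.104 by edgeR) and with library totals alone (adjusted P 0.0826). Efna1, Efna2 and Efna4 overlapped between genotypes.

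Eph receptors are tyrosine kinases, the A class binding mainly ephrin-As and the B class mainly ephrin-Bs. Of 13, 4 were lower (30.8%) and 5 higher (38.5%), against 21.9% and 20.7% of all tested genes. Epha8 had 17.5, 17.2 and 15.4 CPM in WT and 9.47, 9.87 and 8.94 CPM in Fmr1-KO, a log2 fold-change of -0.82 (SE 0.07, edgeR adjusted P 1.05e-08). Epha10 had 4.63, 4.87 and 4.705 CPM in WT and 3.14, 2.61 and 2.903 CPM in Fmr1-KO, a log2 fold-change of -0.71 (SE 0.12). Ephb6 had 42.6, 40.8 and 42.6 CPM in WT and 30.9, 29.3 and 30.9 CPM in Fmr1-KO, a log2 fold-change of -0.47 (SE 0.05). All were lower without overlap, and the kinase domains of Epha10 and Ephb6 are known to be inactive. Epha7 was also lower (-0.27).

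Epha2 had 4.55, 4.81 and 4.46 CPM in WT and 6.24, 6.305 and 6.47 CPM in Fmr1-KO, a log2 fold-change of 0.46 (SE 0.10, edgeR adjusted P 0.000526). Ephb4, a receptor of Efnb2, had 14.7, 13.4 and 15.01 CPM in WT and 18.6, 17.6 and 17.9 CPM in Fmr1-KO, a log2 fold-change of 0.33 (SE 0.07). Epha3 had 46.7, 45.04 and 44.7 CPM in WT and 52.3, 58.8 and 53.8 CPM in Fmr1-KO, a log2 fold-change of 0.27 (SE 0.05). Each Fmr1-KO library exceeded each WT library in these receptors. Ephb3 (0.25) and Ephb1 (0.14) were higher too. Epha4, which binds both ephrin classes and had the highest level per length of the family, had 286 to 303 CPM in WT and 301 to 319.6 CPM in Fmr1-KO. The ranges overlapped and its log2 fold-change of 0.07 (SE 0.03, edgeR adjusted P 0.0906) was not called. Epha5, Epha6 and Ephb2 had log2 fold-changes from -0.09 to -0.05. The Eph receptors together stood at 868 ± 5.82 CPM in WT and 869.9 ± 15.04 CPM in Fmr1-KO (SD, n = 3 per genotype), within the spread.

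Slits are secreted repellents. Slit2, at chr5:47983138-48307733, had 48.1, 45.4 and 43.7 CPM in WT and 74.6, 78.2 and 71.6 CPM in Fmr1-KO, a log2 fold-change of 0.71 (SE 0.04, edgeR adjusted P 3.74e-11). Slit1, at chr19:41600257-41743665, had 55.1, 55.3 and 56.99 CPM in WT and 87.5, 82.7 and 86.8 CPM in Fmr1-KO, a log2 fold-change of 0.62 (SE 0.04, edgeR adjusted P 2.62e-11). The gap between genotypes was many times the spread in both. Slit3 had 9.61 to 10.997 CPM in WT and 9.51 to 12.1 CPM in Fmr1-KO, overlapped and was not called, with a log2 fold-change of 0.06 (SE 0.09, edgeR adjusted P 0.623). The family sum was 112 ± 0.731 CPM in WT and 171 ± 2.55 CPM in Fmr1-KO (SD, n = 3 per genotype), a ratio of 1.53, the largest of the 9 families, whose other ratios ran from 0.957 to 1.23.

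Of the Slit receptors, Robo1 had 140.1, 138 and 139 CPM in WT and 167, 176 and 177 CPM in Fmr1-KO, a log2 fold-change of 0.32 (SE 0.03, edgeR adjusted P 5.31e-08). Robo2 had 259, 271 and 247 CPM in WT and 230.2, 227 and 244 CPM in Fmr1-KO, a log2 fold-change of -0.15 (SE 0.04, edgeR adjusted P 0.00182). They were thus on opposite sides, Robo1 with a wide gap and Robo2 with a narrow one. Robo3, known from commissural axons, and Robo4, known from endothelium, were at 1.48 and 0.542 CPM in WT and were not called. Robo4 (22, 14 and 19 counts in WT and 13, 16 and 17 counts in Fmr1-KO) and Sema3g lay just above the minimum of 10 counts. Epha1 (6, 8 and 6 counts in WT and 7, 3 and 7 counts in Fmr1-KO) and Ntn5 (2, 1 and 1 counts in WT and 0, 1 and 0 counts in Fmr1-KO) lay below it.

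Netrins are secreted ligands related to laminin, and netrin-Gs are lipid-anchored relatives that bind the LRRC4 family. Of 5, 3 were higher (60%) and none was called lower, against 20.7% and 21.9% of all tested genes. Ntng1 and Ntn3 had log2 fold-changes of -0.19 and -0.20 (adjusted P 0.0630 and 0.0697 by edgeR). Ntn3 was called lower without WT replicate 2 (adjusted P 0.0221) and without Fmr1-KO replicate 1 (adjusted P 0.0458, both by edgeR). Ntng2, at chr2:29194541-29253005, had 24.97, 24.5 and 29.1 CPM in WT and 45.7, 44.2 and 42.8 CPM in Fmr1-KO, a log2 fold-change of 0.75 (SE 0.06, edgeR adjusted P 7.72e-10). Of its exon bases, 13.98% are shared with 6530402F18Rik on the same strand, where reads that overlap both genes may go uncounted. Ntn4 had 32.9, 32.6 and 31.6 CPM in WT and 42.99, 39.9 and 40.99 CPM in Fmr1-KO, a log2 fold-change of 0.35 (SE 0.05). Ntn1, the ligand of Dcc, had 48.5, 45.8 and 48.96 CPM in WT and 50.99, 54.9 and 52.8 CPM in Fmr1-KO, a log2 fold-change of 0.15 (SE 0.04, edgeR adjusted P 0.00831). The Ntn1 ranges were close, while those of Ntng2 and Ntn4 were well apart.

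Dcc, the attractive netrin receptor, at chr18:71253634-72351069, had 93.1, 87.3 and 93.1 CPM in WT and 132, 146 and 139 CPM in Fmr1-KO. Every Fmr1-KO library was far above WT, with a log2 fold-change of 0.61 (SE 0.04, edgeR adjusted P 5.99e-11). Unc5d, a repulsive receptor, had 22.1, 22.8 and 21.6 CPM in WT and 27.03, 28.1 and 28.8 CPM in Fmr1-KO, a log2 fold-change of 0.34 (SE 0.05). Unc5c, of the same kind, at chr3:141465216-141834924, had 55.2, 54.6 and 48.96 CPM in WT and 32.97, 32.8 and 33.8 CPM in Fmr1-KO. The Fmr1-KO libraries were close together and below all of WT, with a log2 fold-change of -0.67 (SE 0.05, edgeR adjusted P 3.63e-10). Unc5a had 23.6, 22.5 and 24.3 CPM in WT and 21.6, 20.5 and 21.4 CPM in Fmr1-KO, a log2 fold-change of -0.15 (SE 0.06, edgeR adjusted P 0.0406). It was not called by DESeq2 (adjusted P 0.110), nor by edgeR without any single library other than WT replicate 2 (adjusted P 0.0586 to 0.144). The call was lost, too, under upper-quartile scaling, on library totals and without a filter (adjusted P 0.0570, 0.0954 and 0.0715 by edgeR). Unc5b (-0.05) was not called.

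**Figure D3:**
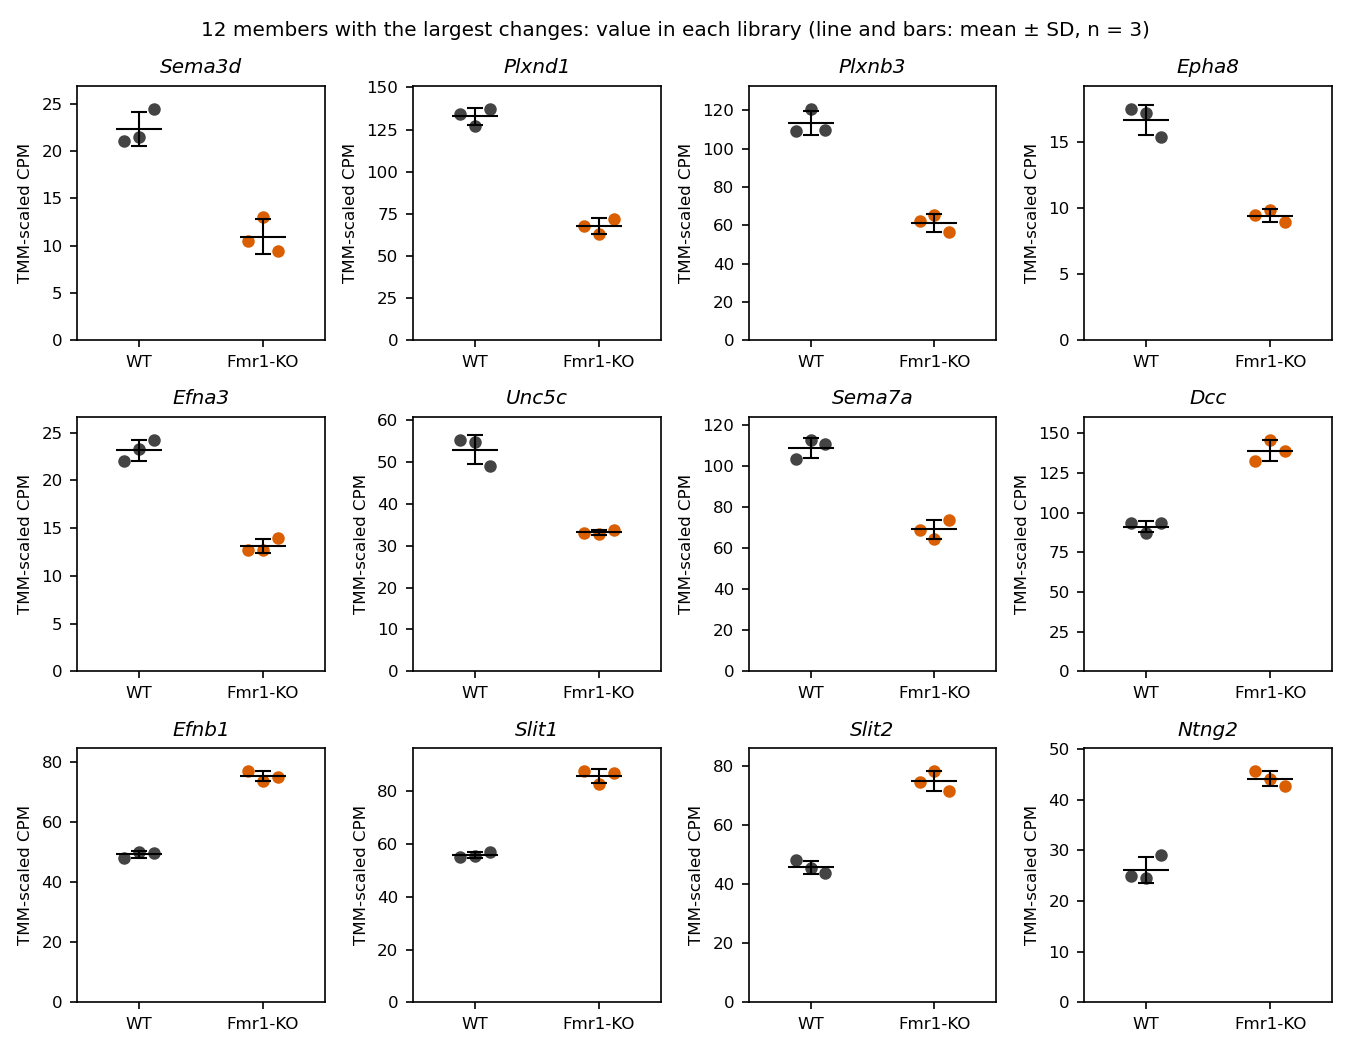
TMM-scaled CPM in each of the 3 WT and 3 Fmr1-KO libraries (points), with mean and SD, for the 12 members of at least 10 CPM with the largest log2 fold-change in size. Sema3d, Plxnd1, Plxnb3, Epha8, Efna3, Unc5c and Sema7a are lower in every Fmr1-KO library than in any WT library, and Dcc, Efnb1, Slit1, Slit2 and Ntng2 are higher.

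The study's list of targets of nonsense-mediated mRNA decay, drawn up in Neuro-2a neuroblastoma cells, holds 4 members. Slit2 (0.71) and Efna5 (0.31) were higher in Fmr1-KO, and Slit3 (0.06) and Sema6d (0.02) were not called. The share called was 50%, against 42.6% of all tested genes. The study reports that its targets were in general lower in these cultures of Fmr1-KO. It also reports that greater synthesis can hide the decay of single targets, and levels here were not set against pre-mRNA. On chromosome X lie 3 members, of which Efnb1 (0.61) and Plxna3 (0.17) were higher and Plxnb3 (-0.89) lower. Sex-linked RNAs differed between genotypes as well: Xist had 306 ± 7.34 CPM in WT and 916 ± 96.4 CPM in Fmr1-KO (SD, n = 3 per genotype), and the Y-linked Eif2s3y, Ddx3y, Kdm5d and Uty had log2 fold-changes of -0.47, -0.28, -0.15 and -0.20, the last not called. The part of these differences in the members' values was not tested.

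Partner genes of the pathway were counted over a list of 67, of which 33 were lower, 16 higher and 18 not called. The share called was 73.1% (49.3% lower and 23.9% higher), against 42.6% of all tested genes (21.9% lower and 20.7% higher). Of 38 intracellular effectors 20 were lower (52.6%) and 4 higher (10.5%), with a median log2 fold-change of -0.12. Their summed level was 8111 to 8173 CPM in WT and 6986 to 7241 CPM in Fmr1-KO. Rnd1, a GTPase that binds plexins, had 24.5 ± 0.296 CPM in WT and 15.01 ± 0.672 CPM in Fmr1-KO (n = 3 libraries each, ± SD), for a log2 fold-change of -0.71 (SE 0.06, edgeR adjusted P 2.88e-09). Crmp1, Dpysl3, Dpysl4 and Dpysl2, collapsin response mediators downstream of Sema3a, were lower (-0.40, -0.28, -0.25 and -0.20), and Dpysl5 (-0.06) was not called. The actin-binding Ablim1 and Ablim3 were lower too (-0.59 and -0.57).

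The other 29 cues, receptors and co-receptors were divided, 13 lower (44.8%) and 12 higher (41.4%). Cntn1, an axonal adhesion protein, had 224 ± 4.75 CPM in WT and 122 ± 3.46 CPM in Fmr1-KO (n = 3 libraries each, ± SD), for a log2 fold-change of -0.87 (SE 0.03, edgeR adjusted P 1.52e-14). Lrrc4c and Lrrc4, receptors of netrin-G1 and netrin-G2, had log2 fold-changes of -0.72 and -0.33, while the ligand Ntng2 was higher. The adhesion proteins L1cam, Nrcam and Chl1 were lower (-0.33, -0.48 and -0.30), as was Neo1 (-0.29), a relative of Dcc. Cntn2, an adhesion protein of early axons, had 199 ± 2.99 CPM in WT and 312 ± 3.11 CPM in Fmr1-KO, a log2 fold-change of 0.65. Draxin, a secreted repellent that binds Dcc, and Islr2 were higher too (0.48 and 0.36).

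Cell type markers moved alongside the members, and their part in the results was not tested. The shares of all tested genes to hold beside these lists were 21.9% lower and 20.7% higher. Oligodendrocyte lineage genes were lower in 10 of 10, with a median log2 fold-change of -0.73. Pan-neuronal genes were lower in 10 of 10 (median -0.68). Proliferation genes were higher in 12 of 12 (median 0.67), with sums of 635 to 680.0 CPM in WT and 1082 to 1162 CPM in Fmr1-KO. Intermediate progenitor genes were higher in 7 and lower in 1 of 9 tested (median 0.55), with sums of 312 to 335 CPM in WT and 469 to 511 CPM in Fmr1-KO, and Neurog1 of that list was near 0. The members went both ways beside these lists, with 22 lower and 27 higher.

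Microglial genes were lower in 8 of 10 (median -0.74), with sums of 229 to 252 CPM in WT and 133 to 148 CPM in Fmr1-KO. Radial glia genes were lower in 1 and higher in 4 of 10 (median 0.09), with sums of 3434 to 3484 CPM in WT and 3747 to 3810.3 CPM in Fmr1-KO. Astrocyte genes were lower in 5 and higher in 3 of 10 (median -0.06). The medians of excitatory neuron and GABAergic interneuron genes were -0.01 and -0.19, with 4 lower and 5 higher of 10, and 6 lower and 4 higher of 10. Excitatory neuron genes summed to 700.3 to 707 CPM in WT and 685 to 707 CPM in Fmr1-KO. Interneuron genes summed to 798 to 831 CPM in WT and 824 to 910.0 CPM in Fmr1-KO. Endothelial and mural genes were lower in 3 and higher in 4 of 8 tested (median 0.38), with sums of 259 to 283 CPM in WT and 417 to 438 CPM in Fmr1-KO, most of it Acta2, while the endothelial Cldn5 and Tek were near 0. Meningeal fibroblast genes were lower in 5 and higher in 1 of 10 (median -0.19), with sums of 552 to 615 CPM in WT and 474 to 526 CPM in Fmr1-KO.

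**Figure D4:**
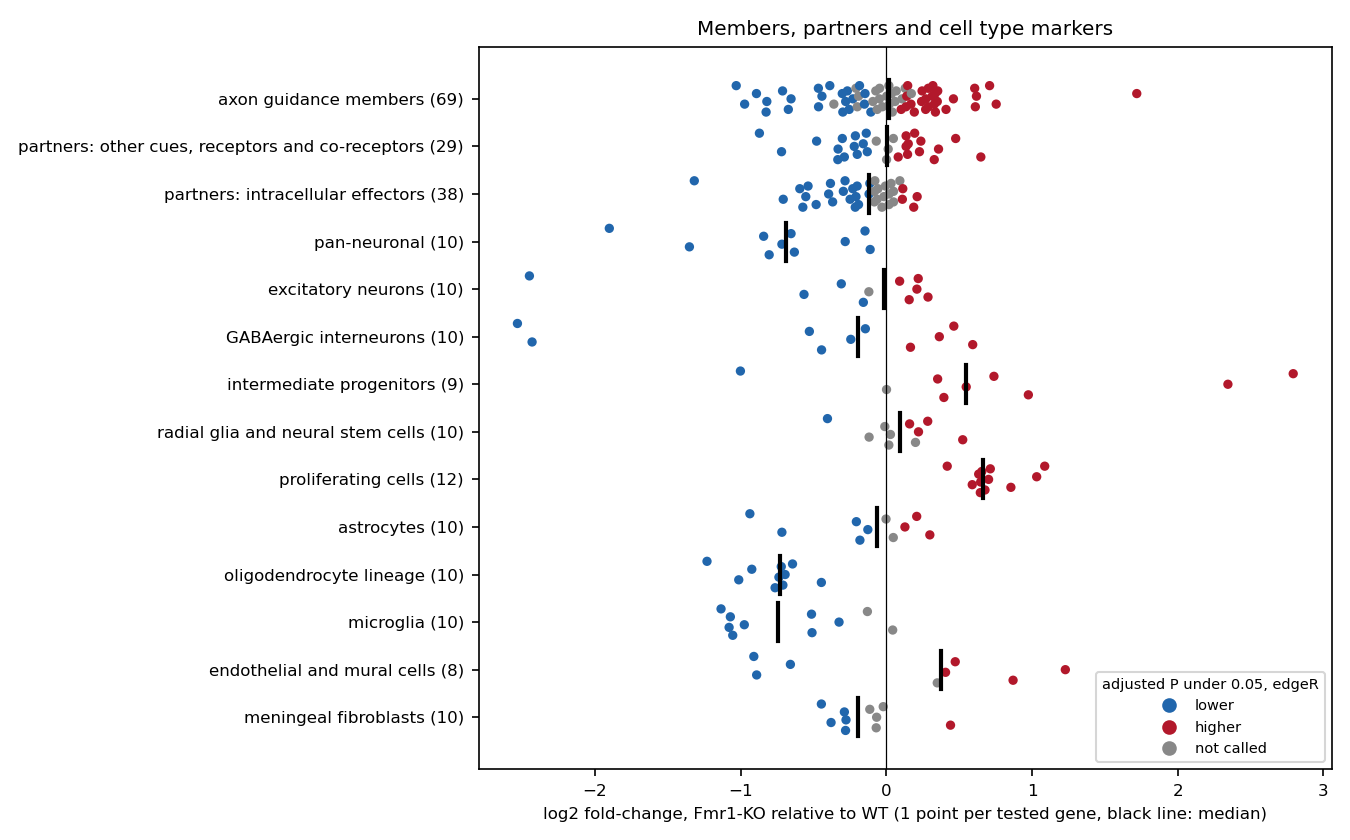
Log2 fold-change in Fmr1-KO relative to WT (x axis) of each tested member, partner and cell type marker (1 point per gene), with the median of each list as a line and the number of tested genes in brackets. Members lie on both sides with a median of 0.02, and effectors have a median of -0.12. The pan-neuronal, proliferating cell and oligodendrocyte lists each lie wholly on one side.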

How the data were processed

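RNA-seq was analysed from 6 libraries, grouped by the genotype that their labels give. Raw counts summed by gene name, without normalization, were deposited by the authors. The study's methods name FastP for trimming of the single-end reads, STAR for alignment and featureCounts, set to reverse-stranded, for counting over exons, so isoforms are not separated. The submitters' processing notes name STAR 2.7.6a, Subread 2.0.1 and GRCm38.p6.

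All genes were fitted with edgeR 4.0.16 in R 4.3.3 (filterByExpr, TMM, glmQLFit and glmQLFTest, two-sided, genotype as the only term), with Benjamini-Hochberg adjustment over 16976 genes. CPM are TMM-scaled. RPKM divide them by the union of exons in GENCODE M21, an earlier release than the authors used, so genes with long unused exons have understated levels. Replicates differed by more than counting noise (chi-square per degree of freedom 2.19 to 3.73). On simulated data for this comparison (16976 genes), 89% of genes changed by 0.5 and 98% of those changed by 1 on the log2 scale were called with the right sign. Only 100 genes were changed at each size and 16776 were left unchanged. In the data 42.6% of tested genes were called, so these rates may not carry over.

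Members and lists were chosen with earlier results of these data known, and the sex-linked genes after their values were seen. Values per library are given for up to 3 called members per family and direction with the largest changes at a mean of at least 1 CPM, the member with the highest RPKM in each family, Dcc, Nrp1, Nrp2, Ntn1, members of the decay target list and those whose call differed in DESeq2. Partners are named by the 3 largest called changes in each direction at a mean of at least 10 CPM, and otherwise as relatives or binding partners, chosen after their values were seen. Alternatives were DESeq2 1.42.0, other normalizations and filters, a replicate block, a fold change above 1.2 and leaving out each library.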

Additional observations from a re-analysis of the deposited data

How the results depend on the processing

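Of 963 member values recomputed under the alternatives, 885 had the direction and call unchanged, 54 lost the call, 11 gained one and 13 changed sign. Requiring a fold change above 1.2 left 11 of 69 members lower and 8 higher, and 14 of 67 partners lower and 3 higher. Of all 16976 tested genes, 1340 (7.89%) were then lower and 883 (5.20%) higher. The members' median log2 fold-change, 0.0212, was 0.0243 with DESeq2, 0.0318 after upper-quartile normalization, 0.0490 on library totals alone, 0.0311 at a mean of at least 50 counts and 0.00257 to 0.0526 without single libraries. Without single libraries, 20 to 21 members were lower and 26 to 28 higher. The log2 fold-change of uncalled members changed sign without single libraries. For Efna1 it ran from -0.173 to 0.161. For Efna4 it ran from -0.0249 to 0.162. For Sema4g it ran from -0.0663 to 0.000948. For Sema6c it ran from -0.0260 to 0.0199. For Sema6d it ran from -0.0200 to 0.0504. For Slit3 it ran from -0.0240 to 0.143. For Unc5b it ran from -0.131 to 0.0410. With library totals alone that of Sema4g was 0.00106. The causes were not tested.

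Same-numbered libraries did not deviate together (correlations -0.0289, 0.0323 and -0.0147). With 3 libraries per genotype, this cannot show whether any were prepared together, and the labels do not say. The fit with a replicate block called 3694 genes lower and 3488 higher, 21 and 28 of them members, whose median was 0.0270. Sema3e lost its call under the block (adjusted P 0.0504) and Sema4b gained one (adjusted P 0.0326, both by edgeR). With library totals alone, 3212 genes were lower and 4207 higher, against 3725 and 3506 with TMM, and 19 members were lower and 30 higher. Members under about 1 CPM had too few counts to show small differences.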
